A study of Mus musculus with 4 samples.

Results

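Kinesins are the microtubule motors named Kif and Kifc in the mouse. The set described here was every protein-coding gene of the GENCODE M21 annotation whose symbol begins with Kif or Kifc followed by a digit. It held 43 of the 37311 genes in the count files, and 37 of them passed the filter on low counts. By textbook role, 15 members were placed in a mitotic class, 15 in a transport class and 13 in a class of other roles. The classes were drawn with earlier results of these data known, so they are not independent of them. The symbol rule also took Kif1bp, a kinesin-binding protein that is not a motor.

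The study profiled ribosomes in J1 mouse embryonic stem cells (strain 129S4/SvJae) after knockdown of eIF4A3 with short hairpin RNAs. This helicase is part of the exon junction complex, which splicing leaves on mRNA. Ribosome protected fragments (RPF), the stretches of mRNA shielded by a ribosome from nuclease, were sequenced in 2 biological replicates. Total RNA depleted of ribosomal RNA was sequenced in 2 biological replicates as the measure of mRNA level. All 4 libraries came from knockdown cells, grown without feeder cells in serum with leukaemia inhibitory factor. According to the labels, 2 hairpins were used, puromycin at 1 μg/mL was applied for 3 days, and cells were collected on day 4.5 after 1 min in 0.1 mg/mL cycloheximide, which holds ribosomes on mRNA. Which replicate received which hairpin is not given in the sources used here, and no libraries from unperturbed cells were analysed here. The ratio of RPF to total RNA is therefore a property of each gene within knockdown cells and does not measure an effect of the knockdown.

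Each motor kinesin couples ATP hydrolysis in a conserved motor domain to movement along microtubules or to their disassembly. Mitotic kinesins build the bipolar spindle, align chromosomes and organise the central spindle for cytokinesis, and many of them are made and destroyed with the cell cycle. Transport kinesins carry vesicles, organelles and ciliary cargo, and several are best known from neurons. Embryonic stem cells divide rapidly and carry abundant mitotic motors.

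The ATP-binding loop of the motor domain defines the family, and it is shown here for members that recur in the results. It was searched in the annotated protein of each member as glycine, any residue, threonine, any 2 residues, glycine, lysine, and serine or threonine. The loop was found in 40 of 43 members. The 3 without it were Kif1bp and the atypical kinesins Kif26a and Kif26b. Coding sequences of the loop, from the GENCODE M21 transcripts of the C57BL/6J reference on the coding strand, are printed 5′ to 3′ with the lysine codon and the serine or threonine codon in capitals.
Kif2c: ggacagacaggcagtgggAAGACA
Kif22: gggcctactggggcagggAAGACA
Kif23: ggcgtgacgggaagtggaAAAACC
Kif11: ggtcagactggcactggaAAAACT
Kifc1: ggacagacaggcagtggcAAGACC
Kifc5b: ggacagacaggcagtggcAAGACC
Kif1c: gggcagacgggggctgggAAGTCC
Kif13a: ggccagacaggttctggaAAGTCC
Kif16b: gggcaaactggatctggaAAGTCC
Kif1b: gggcagactggtgctgggAAATCC
The mitotic members in this group end the loop with a threonine codon, and the kinesin-3 transport members Kif1c, Kif13a, Kif16b and Kif1b end it with a serine codon. The codon did not follow class among members not printed. Kif14, a mitotic kinesin-3, ends the loop with serine, and the transport members Kif3a, Kif3b and Kif5a end it with threonine. The loop began before 28.8% of the protein's length in 33 members. It began near the middle in the microtubule depolymerases Kif2a, Kif2b and Kif2c, and towards the C-terminus in the 4 Kifc proteins. In Kif24 and Kif19a, which also depolymerise microtubules, it began at 22.7% and 10.4%. Kifc1 and Kifc5b had the same 24 bases here, and their whole coding sequences were 98.17% identical.

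The RPF libraries held 9434987 and 7615277 gene counts, and the total RNA libraries held 8969965 and 8218020. Kinesins took 26109 and 23813 of these counts in RPF and 25839 and 25507 in total RNA. Levels below are CPM, counts scaled to a library size adjusted by the trimmed mean of M-values (TMM). At this depth a count of 0 allows up to 3 counts, worth 0.388 and 0.437 CPM in RPF and 0.294 and 0.31 CPM in total RNA. Eif4a3 itself had 1640 and 1325 counts in RPF and 1229 and 975 counts in total RNA, with no level from unperturbed cells beside them. All 10 pluripotency genes were detected, with a median of 339 CPM in total RNA, and the summed level of 13 neuronal genes was 603 and 397 CPM in RPF against 303 and 191 CPM in total RNA. Most of that neuronal sum was Stmn2, at 281 ± 117 CPM in RPF and 139 ± 62.5 CPM in total RNA (SD, n = 2 each). Its part in the levels of neuronal kinesins was not tested, and in bulk samples more cells of a type and more RNA per cell cannot be told apart.

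Kinesins of mitosis had higher ratios of footprints to mRNA than kinesins of transport, both by median and by calls. Of the 14 mitotic members tested, 7 were higher in RPF than in total RNA and none was lower. Of the 15 transport members, none was higher and 3 were lower. Over the whole family, 8 members were higher and 4 were lower, and 25 did not pass. Calls were made with edgeR's quasi-likelihood test across 13809 genes at a Benjamini-Hochberg adjusted p of 0.05. Across all these genes, 20.5% were called higher and 21.2% lower (20.8% and 19.3% of the protein-coding ones), so the 3 lower transport members were near the background share. The median log2 ratio of RPF to total RNA was 0.47 for mitotic members, 0.05 for transport members and 0.11 for other members, beside -0.02 for all genes tested; with library size alone as the scaling these medians were 0.04, -0.37, -0.32 and -0.46, so that of the mitotic class alone stayed above 0. At an unadjusted p below 0.05, 1 mitotic member was lower and 2 transport members were higher, and DESeq2, which called 18.8% of all genes higher and 16.8% lower, called 0 of either.

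**Figure D1:**
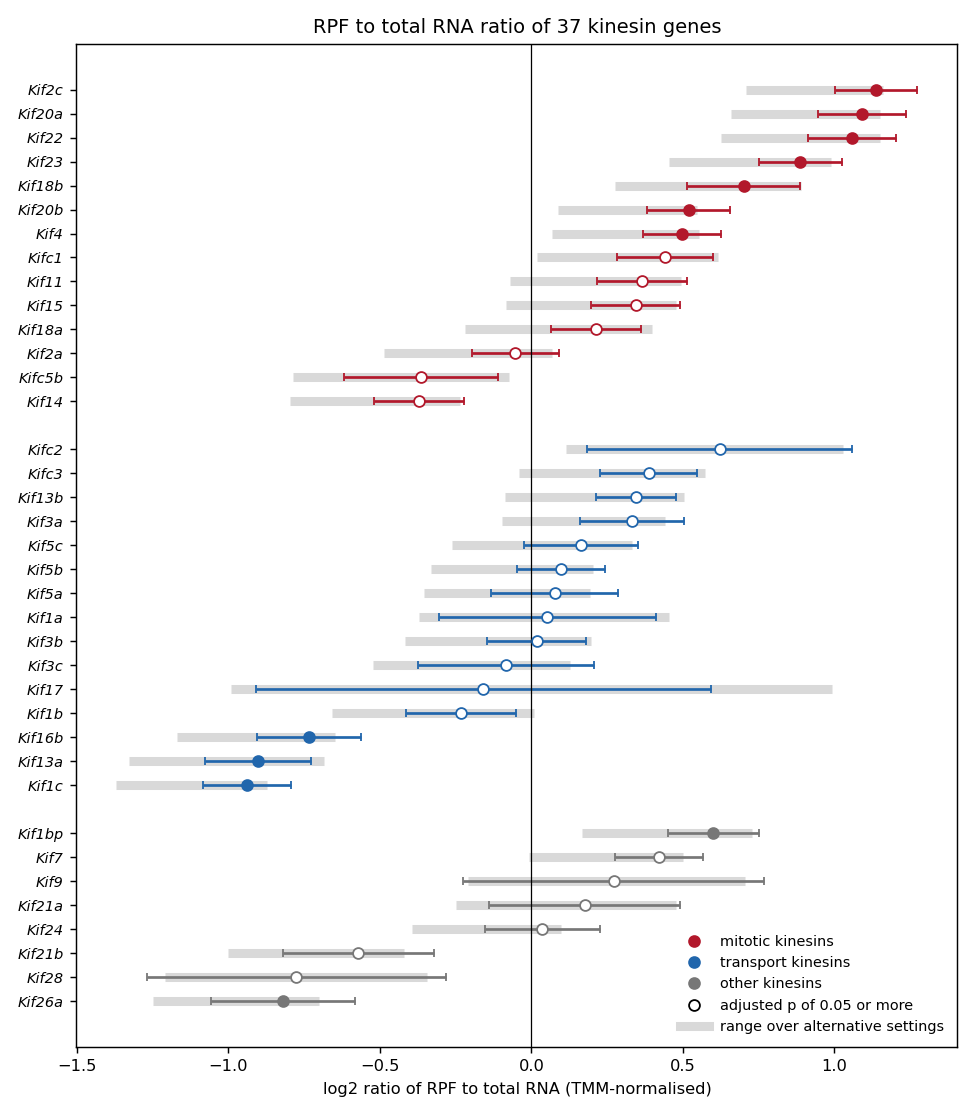
Log2 ratio of RPF to total RNA for each of the 37 kinesins tested, grouped as mitotic, transport and other; points are edgeR estimates from 2 libraries per fraction, bars are ± 1 SE, grey bands are the range over alternative settings, and filled points passed at an adjusted p of 0.05. The mitotic points reach 1.14 and the transport points run from -0.94 to 0.62.

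The call counts, and the shares over all genes, depended on scaling and on single total RNA libraries. With library size alone, the kinesins gave 4 higher and 8 lower calls in place of 8 and 4, beside 8.86% and 35.9% of all genes. With the replicate number as a block, they gave 15 and 8, beside 30.8% and 31.6% of all genes. Without total RNA replicate 1, 4 kinesins were called higher, all of them mitotic, where the share of all genes called higher was 14.1%. Without total RNA replicate 2, 2 were called lower, where the share of all genes called lower was 12.9%.

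A comparison of the classes within a library needs no scaling between libraries. The sum of mitotic counts per transport count was 2.69 and 2.5 in RPF replicates 1 and 2, against 1.65 and 1.65 in total RNA replicates 1 and 2. Mitotic members took 69.2% and 67.8% of all kinesin counts in RPF and 58.7% and 58.8% in total RNA. The transport share was 25.7% and 27.2% in RPF and 35.6% and 35.6% in total RNA. Shares within a library are not independent, since a higher mitotic share lowers the others. In TMM-scaled CPM the mitotic sum was 2338 and 2353 in RPF and 1486 and 1548 in total RNA, while the transport sum was 868 and 943 in RPF and 900.5 and 936 in total RNA, which overlapped. Scaled by library size alone, the mitotic sum was 1916 and 2119 CPM in RPF and 1692 and 1826 CPM in total RNA, and the transport sum was 711 and 849 CPM in RPF and 1025 and 1104 CPM in total RNA. Which class moved therefore depended on the scaling, while their ratio did not. The share of the other class was 5.05% and 5.07% in RPF and 5.67% and 5.63% in total RNA.

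**Figure D2:**
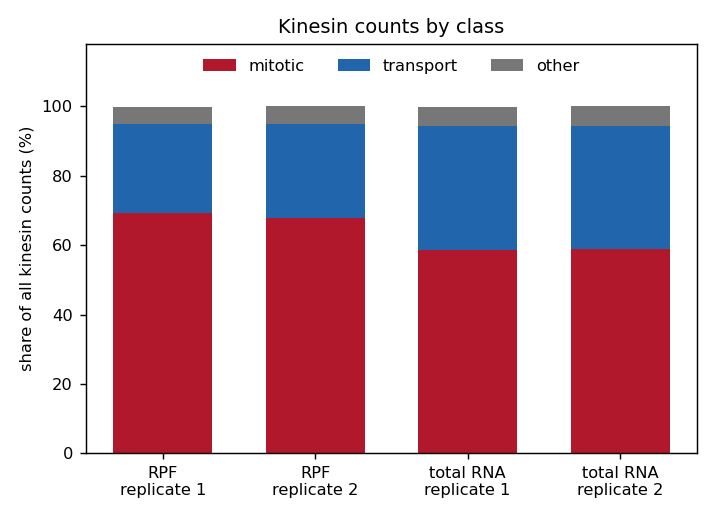
Share of all kinesin counts taken by the mitotic, transport and other classes in each library, in percent, with RPF libraries left of total RNA libraries. The mitotic share is 69.2% and 67.8% in RPF and 58.7% and 58.8% in total RNA.

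Taking each RPF library with each total RNA library gave 4 pairings. The median ratio of mitotic members exceeded that of transport members in all 4, by 0.38, 0.60, 0.28 and 0.50 on the log2 scale (SD 0.14), and the fitted medians differed by 0.42. Leaving out total RNA replicate 1 gave 0.59 and leaving out total RNA replicate 2 gave 0.29, the extremes of 16 alternative settings. Of the mitotic members, 11 of 14 had both RPF libraries above both total RNA libraries, which 34.9% of all genes did, and 1 had both below, which 37.9% of all genes did. Of the transport members, 4 of 15 lay above, 3 lay below and 8 overlapped. The members of a class are not replicates, so no p is attached to the difference between the classes.

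Several kinesins depolymerise microtubules, among them the kinesin-13 members Kif2a, Kif2b and Kif2c. Kif2c (Mcak), which removes faulty attachments at centromeres, had the highest ratio of the family. Its level was 264 and 262 CPM in RPF replicates 1 and 2 and 122 and 117 CPM in total RNA replicates 1 and 2. RPF was thus above total RNA in every pairing, 2.2-fold on average (log2 ratio 1.14 ± 0.14 SE, adjusted p = 0.00137 by edgeR). Its relative Kif2a, a depolymerase of spindle poles that also works in neurons, had 71.6 and 61.5 CPM in RPF and 71.3 and 66.9 CPM in total RNA. These values overlapped, and the log2 ratio was -0.05 ± 0.14 (adjusted p = 0.792 by edgeR). Kif2b, a depolymerase of early mitosis, had 0 counts in all 4 libraries, which allows up to the 3-count limits given above. The Kif2a exons lie opposite another gene over 19.2% of their length.

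Kinesins of the central spindle and of cytokinesis included 2 of the 4 highest ratios. Kif20a (Mklp2), which brings the chromosomal passenger complex to the midzone, had 433 and 410 CPM in RPF and 198 and 198 CPM in total RNA. That was the highest footprint density of the family, 153 CPM per coding kb, and RPF was 2.13-fold higher than total RNA (log2 ratio 1.09 ± 0.15 SE, adjusted p = 0.00187 by edgeR). Exons of another gene on the opposite strand cover 29.3% of the Kif20a exons, and the strand setting of the counting is not given in the sources used here. Kif23 (Mklp1), the motor of centralspindlin, had 175 and 170 CPM in RPF and 88.5 and 97.5 CPM in total RNA. Its RPF libraries were both above the total RNA libraries, by 1.85-fold (log2 ratio 0.89 ± 0.14 SE, adjusted p = 0.00305 by edgeR). Kif20b (Mpp1), a relative that acts late in cytokinesis, had 250 and 252 CPM in RPF against 173 and 178 CPM in total RNA (1.43-fold higher, adjusted p = 0.0209 by edgeR).

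Kif14, which acts with citron kinase at the midbody, had the lowest ratio of the class. It had 61.4 and 73.3 CPM in RPF and 83.5 and 90.6 CPM in total RNA, so both RPF libraries were below both total RNA libraries. The log2 ratio was -0.37 ± 0.15 SE and did not pass (adjusted p = 0.0822 by edgeR). By edgeR it passed as lower once the ratio was corrected for how much of the exon sequence is coding (-0.50, adjusted p = 0.0318). It did not pass with exon length also corrected for (-0.28, adjusted p = 0.175). It also passed as lower with library size alone (-0.80, adjusted p = 0.0109) and with a mean of 10 CPM as the filter (-0.45, adjusted p = 0.0424). With the replicate number as a block it passed without the coding share correction (-0.37, adjusted p = 0.000393) and with it (-0.51, adjusted p = 1.28e-06). The ratio was -0.49 without RPF replicate 2 and -0.23 without RPF replicate 1. The Kif14 3′ untranslated region was the longest of the mitotic class, at 3895 bases.

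Chromokinesins bind chromosome arms. Kif22 (Kid), which pushes the arms towards the spindle equator, had 232 and 207 CPM in RPF and 110 and 100 CPM in total RNA. Both RPF values were far above both total RNA values, 2.08-fold on average (log2 ratio 1.06 ± 0.15 SE, adjusted p = 0.00207 by edgeR). Kif4, which works with Prc1 at the anaphase midzone, had 97.2 and 104 CPM in RPF and 71.5 and 70.9 CPM in total RNA (1.41-fold higher, adjusted p = 0.0203 by edgeR). Opposite-strand exons cover 15.1% of Kif4.

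Spindle assembly motors had high footprint levels with smaller ratios. Kif11 (Eg5), the tetramer that slides spindle microtubules apart, had 238 and 203 CPM in RPF and 167 and 175 CPM in total RNA (log2 ratio 0.37 ± 0.15 SE, adjusted p = 0.0865 by edgeR). Kif15, which can stand in for Kif11, had 176 and 201 CPM in RPF and 141 and 157 CPM in total RNA (0.34 ± 0.15, adjusted p = 0.101). For both genes the RPF libraries stayed above the total RNA libraries, but neither ratio passed. The kinesin-8 motors set microtubule length. Kif18b, a partner of Kif2c on astral microtubules, had 156 and 197 CPM in RPF and 95.2 and 122 CPM in total RNA, and passed as higher (1.63-fold, adjusted p = 0.0217). Kif18a, which dampens chromosome oscillation, had 67.6 and 61.4 CPM in RPF and 60 and 51.3 CPM in total RNA and did not pass (0.21 ± 0.15, adjusted p = 0.282). The difference between these genes was not tested, and with coding share corrected for their ratios were 0.49 and 0.37.

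Minus-end motors that focus spindle poles are represented by a near-identical pair of genes. Kifc1 (HSET) had 90.5 and 115 CPM in RPF and 73.3 and 77.8 CPM in total RNA (log2 ratio 0.44 ± 0.16 SE, adjusted p = 0.0597 by edgeR). Kifc5b had 24.9 and 36.7 CPM in RPF and 32.4 and 46.9 CPM in total RNA, which overlapped between the fractions (-0.36 ± 0.25, adjusted p = 0.286). Stretches of 28 bases shared with other genes made up 60.8% of Kifc1 and 54.4% of Kifc5b. Reads aligned to several places were 21.05% and 20.64% of the RPF tallies and 16.64% and 16.55% of the total RNA tallies, so the division of counts between the pair is uncertain.

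Of the 7 mitotic calls, those of Kif2c, Kif20a, Kif22 and Kif23 held in all 14 alternative settings that refit these genes. The call of Kif18b was lost with coding share and exon length both corrected for (adjusted p = 0.103 by edgeR). The call of Kif4 was lost with no count filter (adjusted p = 0.0527 by edgeR). By edgeR, those of Kif18b, Kif20b and Kif4 were lost after the coding share correction (adjusted p = 0.074, 0.103 and 0.115) and without total RNA replicate 1 (0.161, 0.202 and 0.145). The calls of Kif20b and Kif4 were also lost without total RNA replicate 2 (adjusted p = 0.171 and 0.16), and all 3 were lost with library size alone (0.326, 0.641 and 0.744, in the order Kif18b, Kif20b, Kif4).

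**Figure D3:**
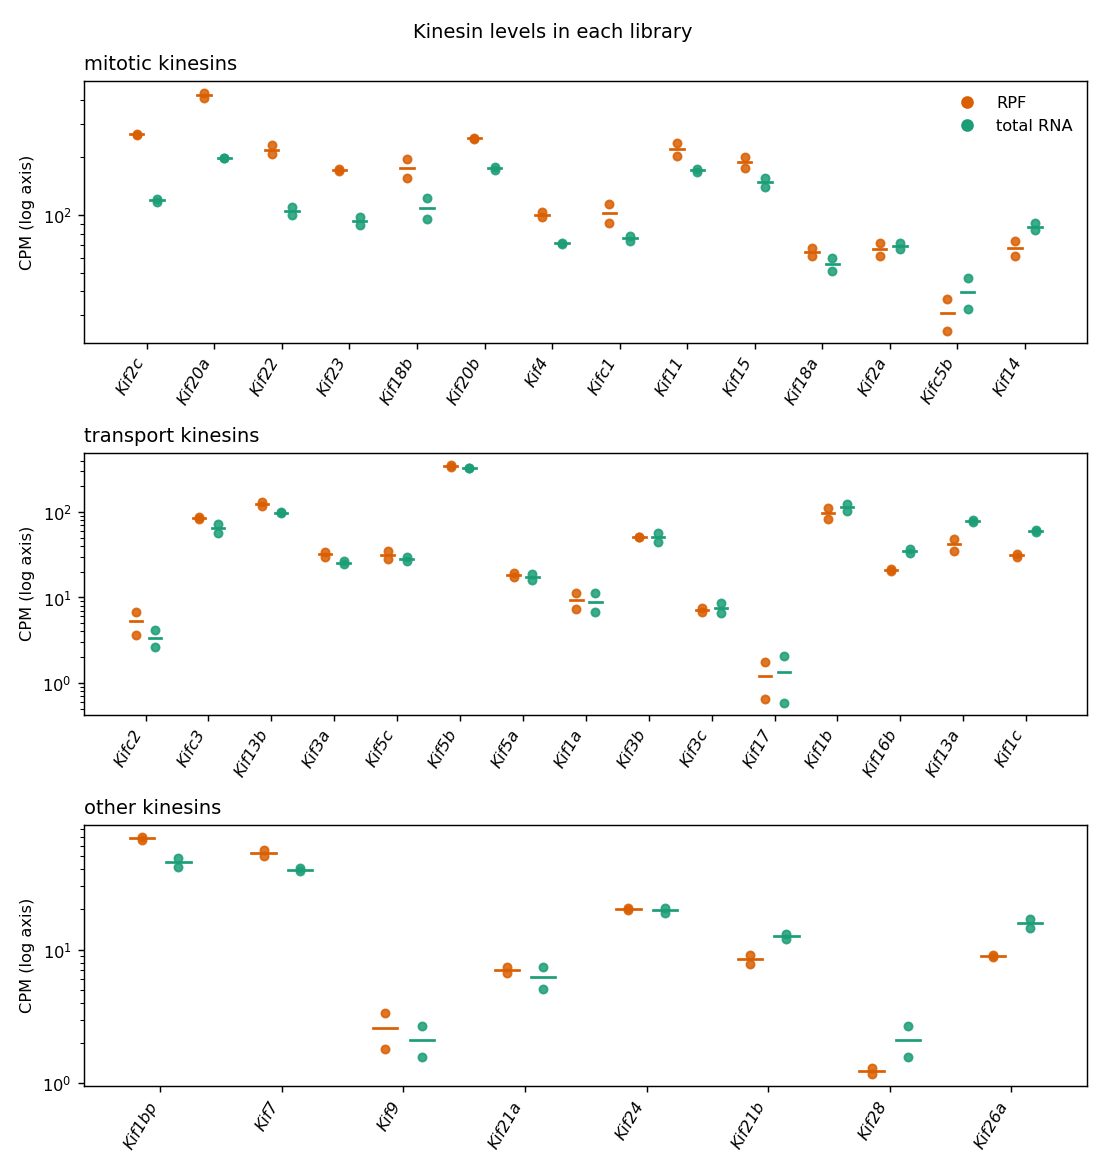
Level of each kinesin in TMM-scaled CPM in every library, on a log axis, with RPF left of total RNA and panels for the tested mitotic, transport and other members; dashes mark the mean of 2 libraries. Both RPF marks of Kif2c, at 264 and 262 CPM, lie above both of its total RNA marks, at 122 and 117 CPM.

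Kinesin-1, the motor that carries most general cargo, had no heavy chain that passed in either direction. Kif5b, its ubiquitous heavy chain, was the most abundant transport member, with 340 and 358 CPM in RPF and 328 and 324 CPM in total RNA. RPF was slightly above total RNA in each pairing, but the log2 ratio of 0.10 ± 0.15 SE did not pass (adjusted p = 0.618 by edgeR). Per length, Kif5b had 121 CPM per coding kb in RPF and 40.8 CPM per exon kb in total RNA, beside 121 and 27.4 for Kif2c. The neuronal heavy chains were lower in level. Kif5c had 27.9 and 35.1 CPM in RPF and 26.4 and 29.8 CPM in total RNA, and Kif5a had 17.3 and 19.2 CPM in RPF and 16 and 18.7 CPM in total RNA. Both overlapped between the fractions and neither passed (adjusted p = 0.515 and 0.79 by edgeR).

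Kinesin-2 drives intraflagellar transport into the cilium. Kif3a, its shared subunit, had 30 and 34.4 CPM in RPF and 24.6 and 26.5 CPM in total RNA. Both RPF values were higher, without passing (log2 ratio 0.33 ± 0.17 SE, adjusted p = 0.16 by edgeR). Its ciliary partner Kif3b had 51.5 and 50.6 CPM in RPF and 44.5 and 56.4 CPM in total RNA (0.02, adjusted p = 0.938), and its neuronal partner Kif3c had 7.63 and 6.71 CPM in RPF and 6.56 and 8.67 CPM in total RNA (-0.08, adjusted p = 0.837). Opposite-strand exons cover 40.7% of Kif3c. Kif17, a motor of dendrites and cilia, stood near the detection limit, with 0.646 and 1.75 CPM in RPF and 0.587 and 2.06 CPM in total RNA. Its replicates differed more than those of any other tested member, by 1.17 in RPF and 1.49 in total RNA on the log2 scale.

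All 3 transport members that were lower belong to kinesin-3, a family of vesicle motors. Kif1c, a motor of dense core vesicles and integrin traffic, had 29.9 and 32.2 CPM in RPF and 60.9 and 58.2 CPM in total RNA. Its RPF level was 0.521 times the total RNA level, the lowest ratio of the family (log2 ratio -0.94 ± 0.15 SE, adjusted p = 0.00307 by edgeR). Kif13a, a motor of endosomes, had 35.4 and 48.1 CPM in RPF and 76.1 and 80 CPM in total RNA. RPF was again below total RNA in every pairing, at 0.535 times its level (-0.90 ± 0.18, adjusted p = 0.00693). Kif16b, an early endosome motor with a lipid-binding PX domain, had 20.6 and 21.7 CPM in RPF and 33.1 and 37.3 CPM in total RNA. It was lower by a smaller amount (-0.73 ± 0.17, adjusted p = 0.0136). The calls of Kif1c and Kif13a held in all 14 alternatives, while that of Kif16b was lost without total RNA replicate 2 (adjusted p = 0.117).

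Other kinesin-3 transport motors did not pass. Kif13b (GAKIN), the paralogue of Kif13a, had 130 and 119 CPM in RPF and 99.2 and 96.8 CPM in total RNA. Its RPF values were the higher ones (log2 ratio 0.35 ± 0.13 SE, adjusted p = 0.075 by edgeR), and it passed as higher with both coding share and exon length corrected for (0.50, adjusted p = 0.0243), a setting that called 17.6% of all genes higher and 20.1% lower. Kif1b, a motor of mitochondria and synaptic vesicle precursors, had 84 and 110 CPM in RPF and 102 and 126 CPM in total RNA (-0.23 ± 0.18, adjusted p = 0.341), and it passed as lower with library size alone (-0.66, adjusted p = 0.0424). Kif1a, the neuronal motor of synaptic vesicle precursors, had 7.24 and 11.4 CPM in RPF and 6.76 and 11.2 CPM in total RNA, and the fractions overlapped (0.05, adjusted p = 0.917). The difference between paralogues was not tested.

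Minus-end transport kinesins had the 2 highest ratios of the class. Kifc2, known from neurons, had 3.62 and 6.85 CPM in RPF and 2.64 and 4.13 CPM in total RNA, which overlapped and left a wide error (log2 ratio 0.62 ± 0.44 SE, adjusted p = 0.288 by edgeR). Kifc3, a motor of epithelial vesicles and cell junctions, had 82.2 and 87.2 CPM in RPF and 72.8 and 56.7 CPM in total RNA (0.39 ± 0.16, adjusted p = 0.0934). Its RPF libraries were above its total RNA libraries. Opposite-strand exons cover 27.5% of Kifc3.

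Kinesins outside both classes were mostly scarce. Of 13, only 8 passed the filter, with 1 higher and 1 lower. Kif1bp, the kinesin-binding protein without a motor domain, had 70.1 and 66.3 CPM in RPF and 41.1 and 48.8 CPM in total RNA. RPF was higher in every pairing (log2 ratio 0.60 ± 0.15 SE, adjusted p = 0.0169 by edgeR), and the call was lost without total RNA replicate 1 (adjusted p = 0.171) and with library size alone (0.451). Opposite-strand exons cover 10.1% of Kif1bp. Kif26a, an atypical kinesin without the ATP-binding loop, had 8.79 and 9.04 CPM in RPF and 17 and 14.4 CPM in total RNA. It was lower (-0.82 ± 0.24, adjusted p = 0.0296), a call not made by DESeq2 (adjusted p = 0.0735) or without total RNA replicate 1 or 2 (adjusted p = 0.188 and 0.0704).

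Regulators of the cilium and of microtubule growth made up most of the rest. Kif7, which controls Hedgehog signalling at the tip of the cilium, had 50.5 and 55.5 CPM in RPF and 40.7 and 38.5 CPM in total RNA. Its ratio was just short of passing (log2 ratio 0.42 ± 0.14 SE, adjusted p = 0.0532 by edgeR), and opposite-strand exons cover 20.3% of it. Kif24, which restrains cilium assembly, had 19.8 and 20.6 CPM in RPF and 18.8 and 20.5 CPM in total RNA. Kif21b, a regulator of microtubule growth in neurons and lymphocytes, had 7.76 and 9.19 CPM in RPF and 12 and 13.1 CPM in total RNA, and did not pass (-0.57 ± 0.25, adjusted p = 0.106). Its relative Kif21a had 6.72 and 7.44 CPM in RPF and 7.44 and 5.06 CPM in total RNA, with no separation (0.18 ± 0.31, adjusted p = 0.682).

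Motile cilium kinesins were near the detection limit. Kif9 had 1.81 and 3.35 CPM in RPF and 1.57 and 2.68 CPM in total RNA (log2 ratio 0.27 ± 0.50 SE, adjusted p = 0.69 by edgeR). Kif28, a kinesin-3 relative, had 1.29 and 1.17 CPM in RPF and 1.57 and 2.68 CPM in total RNA (-0.78 ± 0.49, adjusted p = 0.243). Kif6, Kif12, Kif19a, Kif26b and Kif27 had from 0 to 12 counts in any library and were not tested. Other genes of motile cilia were as scarce, with a median of 1.34 CPM in total RNA over the 8 found in the files.

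Replicate agreement set what could be seen. The median absolute difference between replicates was 0.15 in RPF and 0.155 in total RNA on the log2 scale over the 37 members tested. The ratio was larger than both replicate differences of the same gene in 23 members. The share of all genes with this property was not computed, so the count is not a result about kinesins. On a near measure, 17 of 37 kinesins had both RPF libraries above both total RNA libraries and 7 had both below. Across all genes these shares were 34.9% and 37.9%. The labels do not say whether RPF and total RNA libraries with the same number share a lysate.

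The classes also differed in transcript layout, which the symbol rule did not use. The median 3′ untranslated region of the annotated principal transcript was 541.5 bases over the tested mitotic members, 2284 bases over transport members and 826.5 bases over other members, against 1016 bases over all protein-coding genes tested. The 3 lower transport members Kif1c, Kif13a and Kif16b had 3085, 1519 and 2284 bases, while Kif2c, Kif20a, Kif22 and Kif23 had 528, 662, 62 and 384 bases. Across the 37 kinesins, the ratio and the log2 length of this region had a Pearson r of -0.36 and a Spearman rho of -0.47, and across 12643 coding genes the values were -0.27 and -0.39. The principal transcript of Kif13b has no such region, though only 42.9% of the gene's 13017 annotated exon bases are coding. Long members with ratios near 0 were also present, such as Kif5b with 2724 bases and Kif3b with 3235 bases. So were members with a short region, a negative ratio and no call, such as Kifc5b with 435 bases and Kif1b with 532 bases. These lengths are of 1 transcript, while the counts are per gene. Over all its annotated exons Kif1b has 17608 bases, of which 39.5% are coding. Footprints lie mainly in coding sequence while reads of total RNA also cover untranslated regions, and the part of this length in the ratio was not tested.

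**Figure D4:**
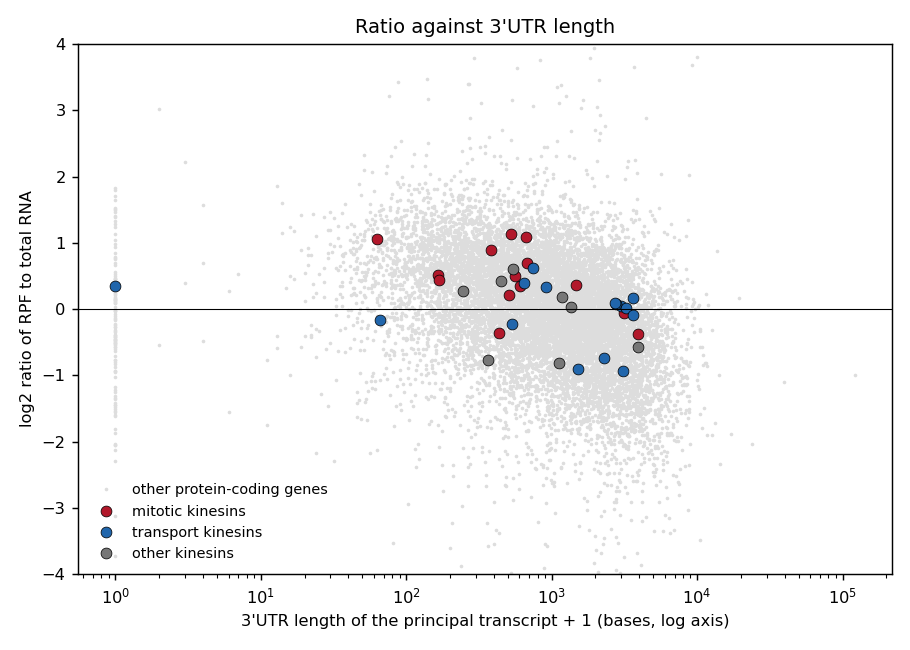
Log2 ratio of RPF to total RNA against the length in bases, plus 1, of the 3′ untranslated region on a log axis, with kinesins coloured by class over 12643 protein-coding genes in grey; 80 coding genes lie outside the plotted range of ratios. The 7 mitotic members called higher sit at 671 bases or fewer and the 3 lower transport members at 1519 bases or more. Members without a call also lie at the short end. These include mitotic Kif15, Kif18a, Kifc1 and Kifc5b (606, 507, 166 and 435 bases) and transport Kif17, Kif1b and Kifc3 (65, 532 and 647 bases).

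The share of the exons that is coding, which bears on the same point, did not separate the mitotic from the transport class. It had a median of 49.1% in mitotic members, 47.4% in transport members and 70.1% in other members. The lower transport members Kif1c, Kif13a and Kif16b had 47.4%, 67% and 67%. Kif2c, Kif20a, Kif22 and Kif23 had 49.6%, 63.3%, 42.2% and 36.7%. Correcting the ratio for coding share, which called 21.3% of all genes higher and 19.7% lower, left 4 mitotic members higher, 1 lower and the medians of mitotic and transport members 0.33 apart. With exon length corrected for as well, 7 mitotic members were higher, beside 17.6% of all genes, and none was lower, beside 20.1%. The medians were then 0.36 apart. These were not the same 7 as reported above. Kif18b was lost (0.44, adjusted p = 0.103 by edgeR) and Kif15 was gained (0.48, adjusted p = 0.0405). Level differed between the classes too. Mitotic members had a median of 48.7 CPM per coding kb in RPF and 17.5 CPM per exon kb in total RNA, against 9.01 and 6.48 for transport members. Across kinesins the ratio and the log2 total RNA level per exon kb had a Pearson r of 0.44 and a Spearman rho of 0.54, with total RNA entering both measures.

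Upstream ATG triplets in the 5′ untranslated region, which can capture scanning ribosomes, were present in 4 of 14 tested mitotic members, 8 of 15 transport members and 5 of 8 other members, beside 51.1% of protein-coding genes tested. In the start codon context, a purine 3 bases before the ATG was present in 13 of 15 mitotic and 14 of 15 transport members, beside 84.55% of all coding genes. A purine there together with a G just after the ATG was present in 7 of 15 mitotic, 10 of 15 transport and 10 of 13 other members, beside 41.51% of all coding genes. The purine was absent in Kif2c, Kif20b and Kifc2. The part of upstream triplets and of start context in the ratio was not tested.

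Genes that work with the kinesins were read from lists of textbook partners. These lists were chosen with earlier results of these data known, so they are not independent of them. Among 25 spindle partners of the mitotic motors, 15 were higher and none was lower, beside 20.5% and 21.2% of all genes, with a median log2 ratio of 0.59. No partner was lower at an unadjusted p below 0.05 either, and DESeq2 called 0 lower. Plk1, the mitotic kinase that regulates Kif2c and Kif20a, had 257 ± 5.72 CPM in RPF and 88.2 ± 6.06 CPM in total RNA (SD, n = 2 each). Its log2 ratio of 1.54 ± 0.14 SE was above that of every kinesin (adjusted p = 0.000742 by edgeR). Incenp, the scaffold of the chromosomal passenger complex, had 263 ± 39.7 CPM in RPF and 116 ± 5.31 CPM in total RNA (1.18 ± 0.16, adjusted p = 0.00203). The lowest partners were Clasp2 (-0.30 ± 0.13, adjusted p = 0.111) and Clasp1 (-0.10 ± 0.13, adjusted p = 0.582), microtubule plus-end proteins that also act outside mitosis. Library size alone as the scaling gave 5 higher and 2 lower partners, beside 8.86% and 35.9% of all genes. A mean of 10 CPM as the filter gave 1 lower, beside 26.3% of all genes. The count of higher partners was 6 without total RNA replicate 1 and 8 without total RNA replicate 2, where 14.1% and 12% of all genes were higher.

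Light chains and cargo adaptors of the transport motors were called about as often as other genes or less. Of 23 tested, 3 were higher and 5 lower, beside 20.5% and 21.2% of all genes, with a median log2 ratio of -0.005. Hook2, an adaptor of endosomes and centrosomes, had 74.5 ± 11.7 CPM in RPF and 43 ± 1.67 CPM in total RNA (0.79 ± 0.16, adjusted p = 0.00756 by edgeR). Ktn1 (kinectin), a kinesin-1 receptor of the endoplasmic reticulum, had 164 ± 9 CPM in RPF and 96.1 ± 8.21 CPM in total RNA (0.77 ± 0.14, adjusted p = 0.00555). Trak2, which links kinesin-1 to mitochondria, was lower, with 44.1 ± 5.68 CPM in RPF and 113 ± 12.7 CPM in total RNA (-1.36 ± 0.16, adjusted p = 0.00133). Mapk8ip1 (Jip1), a scaffold that binds kinesin light chain, was the lowest, with 9.05 ± 1.64 CPM in RPF and 24.2 ± 0.165 CPM in total RNA (-1.42 ± 0.23, adjusted p = 0.00355). With library size alone the counts were 0 higher and 10 lower, beside 8.86% and 35.9% of all genes. The counts of adaptors also moved when a single library was left out. Shares over all genes moved in the same fits, so those counts are not a result about the adaptors.

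Cytoplasmic dynein and dynactin, the opposing minus-end motor and its activator, gave 9 higher and 4 lower of 23 tested, beside 20.5% and 21.2% of all genes, with a median log2 ratio of 0.01. Dync1i2, a dynein intermediate chain, had 169 ± 5.3 CPM in RPF and 63.1 ± 4.61 CPM in total RNA (1.42 ± 0.14, adjusted p = 0.00081 by edgeR). Dctn6, a dynactin pointed-end subunit, had 59.1 ± 2.01 CPM in RPF and 23.8 ± 0.25 CPM in total RNA (1.31 ± 0.15, adjusted p = 0.00114). The lowest at a mean of 10 CPM or more were Dync2h1, the heavy chain of ciliary dynein (-0.86 ± 0.16, adjusted p = 0.00521), and Ndel1, a dynein regulator (-0.62 ± 0.19, adjusted p = 0.036). DESeq2 called 1 lower, beside 16.8% of all genes. Library size alone gave 3 higher and 9 lower, beside 8.86% and 35.9% of all genes. Leaving out a single library moved the counts of this list and the shares over all genes alike, so those counts are not a result about the list.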

How the data were processed

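The authors deposited raw read counts per gene, without normalisation, for each library. The submitters' processing notes name build mm9, TopHat2 2.1.1 and Bowtie 1.2.3 as well as edgeR 3.26.8 and HTSeq 0.11.2. Counted feature, strand setting and annotation release: not given in the sources used here. Tallies that name no gene were left out: reads in no feature were 5.95% and 6.66% of the RPF reads tallied and 23.4% and 26.1% in total RNA, and ambiguous reads 4.96% and 8.58% in RPF and 0.755% and 0.719% in total RNA.

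Symbols, lengths and sequences came from GENCODE M21 (GRCm38), which named 32621 of 37311 identifiers. Since the counts used another build, no coordinates are given. Coding share and exon length are over all annotated exons of a gene. The edgeR version was 4.0.16, with limma 3.58.1 under R 4.3.3, and its filterByExpr kept genes by a count of at least 10 and a total of at least 15. TMM scaling and a two-sided quasi-likelihood test of fraction followed, after a check on simulated data. SE is the size of the log2 ratio over the square root of F. P-values set the difference between fractions against a dispersion from 2 libraries per fraction, which edgeR draws towards a trend over all genes. The limit of 3 counts covers counting error only, while the SE also takes in the spread between libraries.

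Members, classes and lists were chosen with earlier results of these data known. In full, the naming rule took the 4 highest and 2 lowest ratios of each class, members called against their class median, members with fewer than 3 counts, and 2 highest and 2 lowest partners per list at a mean of 10 CPM or more. Alternatives were library size only, DESeq2 size factors, DESeq2 1.42.0, no count filter, a mean of 10 CPM, coding genes only, a replicate block, loess corrections (span 0.5) for coding share and exon length, other class borders, and each library left out.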

Additional observations from a re-analysis of the deposited data

How the results depend on the processing

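No kinesin that passed as reported reversed under an alternative, and none passed under an alternative in the direction opposite to its reported ratio. Single-gene ratios were recomputed under each alternative, giving 511 values, of which 454 kept their side of the threshold, 19 lost it and 38 gained it. Library size alone gave 4 higher and 8 lower kinesins, beside 8.86% and 35.9% of all genes. Of these kinesins, 4 and 2 were mitotic and 0 and 2 were of the other class. In that setting spindle partners gave 5 and 2, adaptors 0 and 10, and dynein and dynactin 3 and 9. DESeq2 size factors gave 2 higher in the other class, beside 21.5% of all genes. A mean of at least 10 CPM gave 1 lower mitotic member and 1 lower spindle partner, beside 26.3% of all genes. The DESeq2 test gave 0 lower in the other class and 1 lower in dynein and dynactin, beside 16.8% of all genes. The coding share correction gave 5 higher kinesins, with 4 higher and 1 lower mitotic, beside 21.3% and 19.7% of all genes. With exon length added, 1 transport member was higher and 3 adaptors lower, beside 17.6% and 20.1% of all genes. Other class borders put Kif2a, Kif14 and Kif20b in the other class and Kif21a and Kif21b in the transport class. They gave 2 higher in the other class. Leaving out members with over 10% opposite-strand or shared sequence, chosen after seeing the data, gave 5 higher kinesins and 0 in the other class. The cause was not tested for any of these.

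With the replicate number as a block, 15 kinesins were higher and 8 lower, with 2 lower mitotic, 3 higher transport, 2 higher and 2 lower other, 1 lower spindle partner, 6 higher and 9 lower adaptors and 8 lower in dynein and dynactin. The block with the coding share correction gave 15 and 8, with 11 higher and 2 lower mitotic, 2 higher transport, 2 and 2 other, 1 lower spindle partner and 7 higher adaptors. Of all genes, the block alone called 30.8% higher and 31.6% lower, and the block with this correction called 31.9% higher and 29.6% lower. Replicate deviations of the fractions correlated across 13809 genes (r = 0.41). There are only 2 pairs, and the labels do not say whether same-numbered libraries share a lysate, so the pairing is not known.

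Leaving out each library in turn gave 4 to 11 higher and 2 to 6 lower kinesins, 4 to 8 higher and 0 to 2 lower mitotic, 0 to 1 higher transport, 0 to 2 higher and 0 to 1 lower other, and 0.289 to 0.592 for the difference of medians. Spindle partners ran from 6 to 18 higher, adaptors from 1 to 6 higher and 3 to 6 lower, and dynein and dynactin from 5 to 10 higher and 1 to 7 lower. Shares of all genes called moved across the same fits, so these ranges of counts are not a result about the members. Depth limits members under about 10 CPM, whose SE reached 0.75 for Kif17.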
